A study of Mus musculus with 6 samples.

Results

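The genes described here encode the machinery that starts transcription of protein-coding genes in mouse neural stem cells: RNA polymerase II, its general transcription factors and the Mediator complex. Members were taken by name from the array's annotation, as symbols that begin with Med or Taf and a digit, with Polr2 or with Gtf2, plus Tbp, Ccnc, Cdk7, Cdk8 and Cdk9. This gave 85 of 18193 named genes, read by 162 probe sets. A gene with several probe sets is represented by the brightest of them, by its mean of 6 arrays. Symbols are gathered by their letters alone, so the 85 also hold relatives with other work. These are the TFII-I family, TAFs of the SAGA coactivator and of RNA polymerase I, the RNA-binding protein Taf15, the opposite-strand transcript Med9os and the symbol Taf7l2, which was placed in no complex. Taf9, Polr2k and Polr2l lie only on probe sets annotated with several genes and were not used here, and Gtf2h2 was not analysed here.

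RNA polymerase II cannot find a promoter by itself. TFIID, built of the TATA-binding protein Tbp and its associated factors (TAFs), binds the promoter, TFIIA and TFIIB hold it there, TFIIF brings in the polymerase, and TFIIE and TFIIH open the DNA. Mediator, a complex of head, middle and tail modules with a detachable kinase module, carries the signal of DNA-bound activators to the polymerase, and the kinase Cdk9 later frees the paused enzyme. Every cell type needs most of these proteins, neural stem cells included.

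Total RNA of neural stem cells from C57BL/6JRj mice was hybridised to 6 arrays. Of these, 3 came from mice aged 6 weeks (YoungNSC) and 3 from mice aged 9 months (OldNSC). All 6 share the strain, and the genotype beyond it, any treatment and the way the cells were isolated or grown are not stated in the labels. The labels also leave unsaid whether the replicates were different animals or cultures. A p-value here therefore weighs a difference against the scatter of these 6 arrays alone, and that scatter may be technical. Levels are log2 values per probe set, with a shared lowest value of 2.14. A difference is the old mean minus the young mean on this scale, and a gene was called where limma's Benjamini-Hochberg adjusted p over 19858 kept probe sets was under 0.05. In such bulk samples, fewer cells of a type and less RNA per cell cannot be told apart.

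Facts of the whole series bear on every value below. The ages separated on principal component 1 (83.2% of variance), whereas component 2 (9.93%) set young replicate 2 off from the other arrays. The 18 hybridisation controls were lower in old arrays by a difference of -0.96 (exact permutation p = 0.1, two-sided, the smallest that 3 against 3 arrays can give), and the 3′ minus 5′ actin value differed by 0.07 (exact permutation p = 0.1). Among 12 stem cell markers 11 passed the filter on low values and were tested. Of these 1 rose and 4 fell, or 45.5% called. Over all named genes that passed the filter 40.6% were called, and the marker shares below stand beside that value. The summed linear level of the 12 was 109000 to 110000 on young and 101000 to 102000 on old arrays. Sox2 read 13.44 ± 0.076 young and 13.30 ± 0.043 old (SD, n = 3), and Nes, which was among those that fell, 12.76 ± 0.102 and 12.30 ± 0.082. Hes5 fell from 7.78 ± 0.225 to 2.43 ± 0.296, close to the lowest value, Sox1 and Egfr fell by 0.73 and 0.40, and Msi1 rose by 0.52. Of 7 astrocyte markers on the array 6 were tested, and of these 4 rose and 1 fell, or 83.3% called. The summed linear level of the 7 was 26700 to 27300 on young and 34000 to 37000 on old arrays, with Gjb6 at the lowest value. The rises ran from 0.86 for Aldh1l1 to 2.93 for S100b, and Slc1a2 fell by 0.65. Of 10 markers of the oligodendrocyte lineage 7 were tested, and of these 4 fell, or 57.1% called. The sum of the 10 was 31200 to 31800 against 28100 to 29700, with Mbp, Mog and Mag at the lowest value. Olig1, Olig2 and Cnp, which were not called, make up most of this sum, whereas Nkx2-2 fell from 10.51 ± 0.049 to 2.26 ± 0.087 and Ugt8a from 9.63 ± 0.346 to the lowest value on all 3 old arrays. Of 11 neuron and neuroblast markers 6 were tested, and of these 4 fell and 1 rose, or 83.3% called. The sum of the 11 was 14800 to 15200 against 14900 to 15300, with Stmn2, Rbfox3 and Slc17a7 at the lowest value. Map2 (13.71 and 13.84, not called) makes up most of this sum, whereas Tubb3 fell from 9.5 ± 0.175 to 3.83 ± 0.327, Neurod1 fell from 8.05 ± 0.489 to 2.40 ± 0.139, and Gad1 rose by 1.58. Of these 11 markers 5 were under the filter and not tested. Dcx, among the 5, read 5.36, 5.03 and 3.17 on the young arrays and 2.14 on all 3 old arrays. Of 10 microglia and leukocyte markers 8, Aif1 and Ptprc among them, read below log2 2.2 on all 6 arrays, and 0 were called (1 at an unadjusted p under 0.05). As low on all 6 arrays were 3 of 7 endothelial markers, Pecam1 among them, and 7 of 10 mural and fibroblast markers, Pdgfrb and Dcn among them. The 1 gene that passed the filter in each of these lists, Flt1 and Acta2, fell. Of 5 ependymal markers 3 were under the filter and not tested, and the other 2 were called. Foxj1 rose from 3.36 ± 0.395 to 5.81 ± 0.471, and Ccdc153 fell from 6.73 ± 0.685 to 5.04 ± 0.289. Foxj1 passed the filter through the old arrays alone. Hes5, Nkx2-2, Ugt8a, Neurod1 and Snap25 passed it through the young arrays alone. Passing through 1 age alone favours a call. The part of these cell types and controls in the results below was not tested.

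Old and young cells differed by small amounts in this machinery. Of the 85 members 80 passed the filter on low values, and all 80 read above log2 4 on all 6 arrays. Among the 80, 6 rose and 15 fell in old cells, 26.2% in all. Over all 10050 named genes that passed the filter 40.6% were called, 22.0% higher and 18.5% lower. By complex the share of members called ran from 0% in TFIIH to 40.0% in the Mediator middle, so none lay above that of all genes. With every probe set tested, 16.2% of the 80 members and 11.1% of all probe sets were called. These shares are not alike in kind: the 80 had all passed the filter, while all probe sets include those that had not. The median difference was -0.11 over the members and 0.01 over all genes, and the median size of a difference, whatever its sign, was 0.16 against 0.23. The members' median level was 11.32 against 10.79 for all genes. Differences ran from -0.76 for Polr2f to 0.88 for Gtf2ird1, and 5 members, or 6.25%, lay beyond 0.5 in either direction, against 25.9% of all genes. Below 0 lay 55 of the 80 members, or 68.8%, against 48.3% of all genes. The member count was 57 on centring each array on its median and 58 on a second quantile normalization. The share of all genes below 0 is not given for these 2 scalings. The median difference over all kept probe sets was 0.009 in the main fit, -0.002 with centring and 0.005 with quantile normalization. The arrays of the ages did not overlap for 44 members, or 55.0%, and for 60.0% of all genes.

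**Figure D1:**
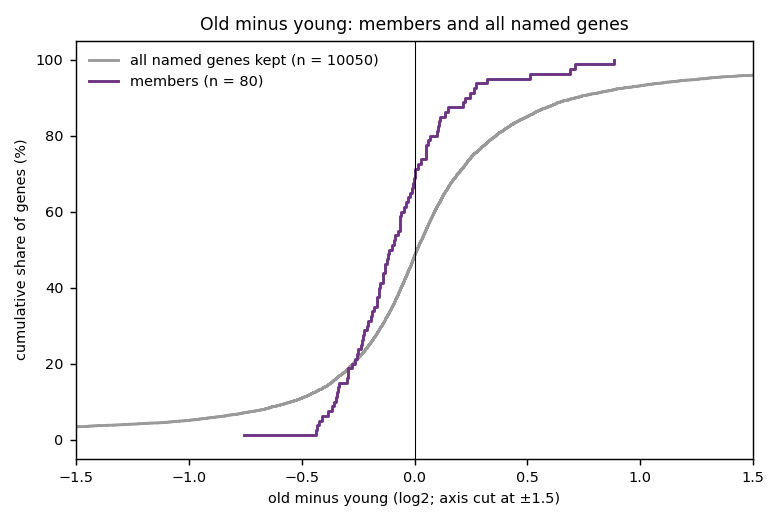
Cumulative share of genes (%) against the old minus young difference (log2), for the 80 members and for the 10050 named genes that passed the filter; the axis ends at ±1.5. The members' curve is steeper and crosses 0 at 68.8%, against 48.3% for all genes.

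The 5 members under the filter were Med18, Taf6l, Taf7l, Taf7l2 and Gtf2a1l. Taf7l, Taf7l2 and Gtf2a1l, named as relatives of core subunits, sat at 2.14 on all 6 arrays. Taf6l read 2.2 to 2.27. Med18, a subunit of the Mediator head, read 3.78, 3.72 and 3.69 on the young arrays and 4.55, 3.83 and 3.84 on the old ones. Only its first old array lay above the filter, and it was not tested.

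The promoters of the members that moved most are shown first, since they are the DNA on which this machinery is itself assembled. RefSeq promoter windows (GRCm38.p6, 250 bases before to 50 after the start) were matched for 75 of the 85 members. Members without such a window were Med24, Taf2, Med30, Med8, Med23, Taf7, Polr2g, Taf4b, Gtf2e2 and Polr2d. Searched on both strands for exact letters, the TATA box TATAAA was found in 16.0% of these windows and in 13.3% of those of 17491 protein-coding genes. The GC box GGGCGG was in 66.7% against 46.3%, CCAAT in 36.0% against 39.0%, and the ETS-type site CCGGAAG in 32.0% against 11.9%. The median GC content was 58.7% for the members and 56.3% for all protein-coding genes. The 17491 genes were not limited to those that passed the filter, as nearly all members did, so the sets are not matched for level. The motifs were chosen with the results known. These are descriptions of letters, with no test. The 120 bases that end just before the start follow, 5′ to 3′ on the gene's strand, with any of the 4 motifs in capitals. They belong to the 3 called members with the largest falls and the 3 with the largest rises among those matched.
Polr2f, fell, chr15:79141205-79141324, plus strand: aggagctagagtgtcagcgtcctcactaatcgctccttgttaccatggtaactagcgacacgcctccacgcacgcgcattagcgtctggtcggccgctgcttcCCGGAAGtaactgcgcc
Med11, fell, chr11:70451798-70451917, plus strand: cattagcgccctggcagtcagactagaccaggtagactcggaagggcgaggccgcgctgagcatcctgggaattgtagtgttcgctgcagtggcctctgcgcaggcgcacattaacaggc
Med9, fell, chr11:59948094-59948213, plus strand: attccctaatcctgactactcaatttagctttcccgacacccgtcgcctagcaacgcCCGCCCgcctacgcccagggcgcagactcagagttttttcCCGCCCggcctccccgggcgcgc
Gtf2ird1, rose, chr5:134456717-134456836, minus strand: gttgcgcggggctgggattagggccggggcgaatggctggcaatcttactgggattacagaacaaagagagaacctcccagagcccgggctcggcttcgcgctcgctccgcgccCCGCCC
Med12l, rose, chr3:59006858-59006977, plus strand: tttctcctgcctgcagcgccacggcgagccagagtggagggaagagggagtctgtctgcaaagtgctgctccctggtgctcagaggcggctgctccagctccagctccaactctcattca
Taf13, rose, chr3:108571579-108571698, plus strand: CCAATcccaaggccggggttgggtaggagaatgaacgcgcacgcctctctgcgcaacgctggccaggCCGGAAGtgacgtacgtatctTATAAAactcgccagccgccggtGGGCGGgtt

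Capitals thus mark an ETS-type site for Polr2f, GC boxes on the opposite strand for Med9 and Gtf2ird1, and all 4 motifs for Taf13, while the stretches of Med11 and Med12l hold none of these letters. Among the 17 called members with a window 4 held the ETS-type site (Gtf2a1, Polr2f, Taf1 and Taf13), or 23.5%. It was in 19 of the 53 members that passed the filter and were not called, or 35.8%.

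In RNA polymerase II itself only falls were called. Of its 11 measured genes 3 fell, 0 rose and 10 lay below 0, with a median difference of -0.15. The share called was 27.3%, against 40.6% of all genes, of which 18.5% were lower. The strongest fall was that of Polr2f, a small subunit that RNA polymerases I, II and III share. Polr2f read 10.94, 10.64 and 10.63 on the young arrays and 10.01, 10.03 and 9.90 on the old ones. The ages are well apart, and the level fell by 0.76 ± 0.10 on the log2 scale (SE; adjusted p = 0.00382). On the linear scale it fell by 40.7%. Polr2e, another shared subunit, gave 11.36, 11.29 and 11.37 in young cells against 11.00, 11.07 and 11.05 in old ones. All old arrays again lay under all young arrays, and it fell by 0.30 ± 0.049 (adjusted p = 0.00708). Polr2h, the last shared subunit measured, had a difference of -0.23 ± 0.074 that missed the threshold (adjusted p = 0.0582), though its arrays did not overlap (12.20, 11.95 and 12.10 against 11.85, 11.87 and 11.84). The ages did not overlap for 7 of the 11 polymerase genes, or 63.6%, against 60.0% of all genes.

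The other 8 Polr2 genes had a median difference of -0.11, against -0.30 for the 3 shared subunits, a split made after the values were seen and not tested. Only Polr2d of the 8 was called, with 11.51, 11.42 and 11.45 in young and 11.27, 11.34 and 11.24 in old cells. It forms the stalk of the enzyme with Polr2g, and it fell by 0.18 ± 0.053 (adjusted p = 0.0478). Its stalk partner Polr2g had a difference of -0.07 (adjusted p = 0.394). The largest subunit, Polr2a, which holds the active site and the tail that kinases mark, read 11.90, 12.44 and 11.99 in young cells and 11.81, 11.67 and 11.77 in old cells. Old arrays were lower throughout, but young replicate 2 was far above the others, and the difference of -0.36 ± 0.15 did not pass (adjusted p = 0.122). Without young replicate 2 it was -0.19 (adjusted p = 0.0924). Polr2b, the partner of Polr2a at the active site, differed by -0.15 (adjusted p = 0.069), and Polr2c, of the assembly core, by -0.14 (adjusted p = 0.217). Differences within 0.10 were seen for Polr2m (-0.09), an inhibitor bound to the enzyme, for Polr2i (0.05), which acts in proofreading, and for Polr2j (-0.02).

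TFIID held members that went both ways. Of 15 measured subunits 2 rose and 2 fell, or 26.7% called against 40.6% of all genes, and the median difference was -0.01. Tbp, which bends the promoter DNA, read 11.17, 10.98 and 11.00 in young cells and 11.03, 11.00 and 11.08 in old cells. The ages overlap fully, and the difference was -0.01 ± 0.067 (adjusted p = 0.913). Close to 0 with Tbp were Taf2, Taf3 and Taf11, which had differences between -0.01 and 0.00. Taf4b, a variant of Taf4 best known from germ cells, stood out with 9.70, 9.20 and 9.30 in young cells and 9.95, 10.10 and 10.21 in old cells. No old array came down to the highest young one, and Taf4b rose by 0.69 ± 0.15 (adjusted p = 0.0192), or by 61.0%. A second probe set of Taf4b rose by 0.48 (adjusted p = 0.00802). Taf4 itself had a difference of -0.27 ± 0.11 that did not pass (adjusted p = 0.103).

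Taf13, which pairs with Taf11 through a histone fold, was the other riser of TFIID. It read 12.38, 12.30 and 12.38 in young cells and 12.57, 12.61 and 12.69 in old cells, and rose by 0.27 ± 0.055 (adjusted p = 0.0153). Its partner Taf11 had a difference of 0.00 (adjusted p = 0.997). Taf5, a WD-repeat subunit of the TFIID core, read 11.66, 11.59 and 11.54 in young cells and 11.36, 11.29 and 11.13 in old cells. It fell by 0.34 ± 0.077 (adjusted p = 0.0213). The scaffold subunit Taf1 had some of the tightest replicates, 12.26, 12.28 and 12.24 against 12.12, 12.10 and 12.06, and fell by 0.17 ± 0.043 (adjusted p = 0.0325). Taf9b, Taf12, Taf4, Taf7 and Taf10 also kept the ages apart on every array without passing the test, the first 2 with higher and the others with lower levels in old cells. In TFIID the arrays of the ages did not overlap for 9 of the 15 subunits, or 60.0%, the same share as over all genes. Taf6 and Taf8 overlapped between the ages, with differences of -0.16 and -0.29.

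TFIIA, TFIIB, TFIIE and TFIIF held calls in both directions. Of 7 measured genes 1 rose and 1 fell, or 28.6% called against 40.6% of all genes. The median difference was 0.05, which was -0.04 without young replicate 3. Gtf2b, the single protein of TFIIB that joins the polymerase to Tbp, read 11.96, 11.86 and 11.92 in young cells and 11.65, 11.71 and 11.70 in old cells. It fell by 0.23 ± 0.050 (adjusted p = 0.0182), with no overlap between the ages. Gtf2a1, the large subunit of TFIIA, moved the other way, with 10.97, 10.90 and 10.78 against 11.08, 11.18 and 11.19. It rose by 0.26 ± 0.070 (adjusted p = 0.0348), and its 2 other probe sets had differences of 0.26 (adjusted p = 0.0531) and 0.27 (adjusted p = 0.0301). Gtf2a2, the small subunit of TFIIA, had a difference of 0.05. The TFIIE subunits Gtf2e1 (0.05) and Gtf2e2 (-0.12) and the TFIIF subunits Gtf2f1 (-0.13) and Gtf2f2 (0.15) did not pass.

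In TFIIH, which opens promoter DNA and also serves in DNA repair, limma called 0 of 5 measured genes, against 40.6% of all genes. In it 1 gene had an unadjusted p under 0.05. That gene, Gtf2h3, read 10.01, 9.67 and 9.83 in young cells and 10.21, 10.02 and 10.24 in old cells, a difference of 0.32 ± 0.11 (adjusted p = 0.0724). Cdk7, the TFIIH kinase that marks the polymerase tail, read 11.97, 12.18 and 12.06 in young cells and 12.16, 12.19 and 12.26 in old ones. Its ages overlapped, and the difference was 0.13 ± 0.072 (adjusted p = 0.199). Gtf2h1, Gtf2h4 and Gtf2h5 had differences of 0.00, 0.03 and -0.03. Cdk9, the kinase of the elongation factor P-TEFb, read 10.55, 10.43 and 10.52 against 10.64, 10.54 and 10.66. The difference of 0.11 ± 0.060 did not pass (adjusted p = 0.199).

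**Figure D2:**
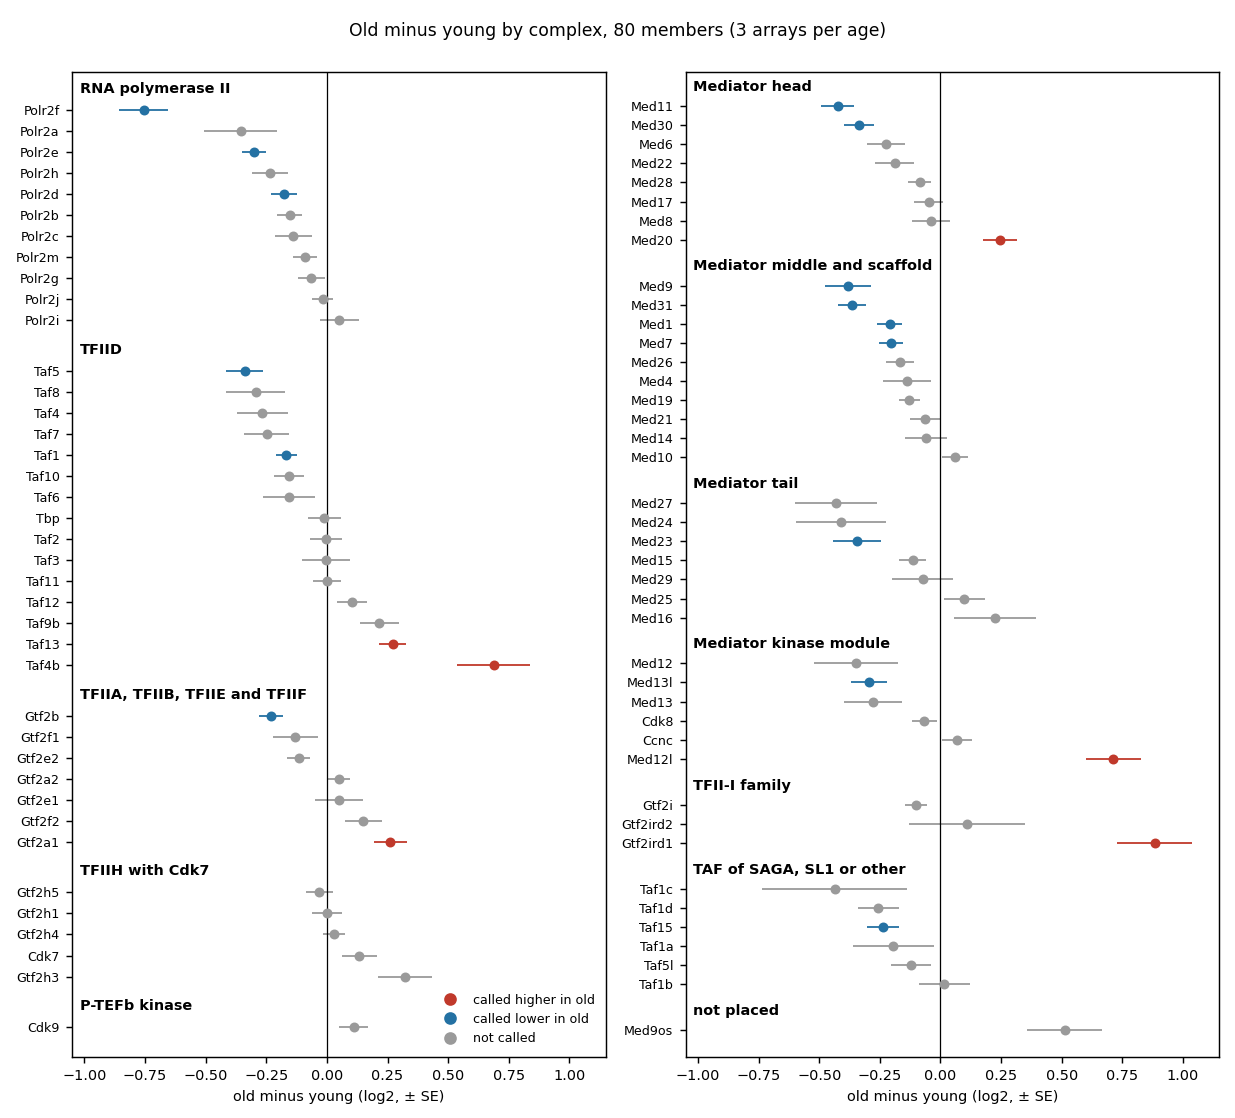
Old minus young difference (log2, bars ± SE, 3 arrays per age) of each of the 80 members, grouped by complex; red and blue mark members called higher and lower in old cells, grey those not called. The polymerase and the Mediator head and middle lie mostly left of 0, while Gtf2ird1, Med12l and Taf4b stand out to the right.

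Mediator was the largest block, with 31 of its 32 members measured. In it 2 genes rose and 8 fell, or 32.3% called against 40.6% of all genes, and 25 lay below 0, with a median difference of -0.14. The head module touches the polymerase directly. Of its 8 measured genes 1 rose and 2 fell, or 37.5% called against 40.6% of all genes, and its median was -0.14. Med11 read 11.13, 11.01 and 10.99 in young cells and 10.62, 10.71 and 10.55 in old cells. This fall of 0.42 ± 0.068 (adjusted p = 0.00706) was the largest of the called genes in Mediator, while Med22, with which Med11 forms a pair, had a difference of -0.19 (adjusted p = 0.12). Med30, a head subunit, read 11.93, 11.92 and 11.87 against 11.50, 11.67 and 11.54. It fell by 0.34 ± 0.061 (adjusted p = 0.0106). Med20 was the exception, with 10.69, 10.54 and 10.51 in young and 10.81, 10.78 and 10.90 in old cells. It rose by 0.25 ± 0.070 (adjusted p = 0.0422), but its other probe set had a difference of 0.03 (adjusted p = 0.779). Med17, the core of the head, had a difference of -0.05 and Med8 of -0.04.

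The middle module, counted here with the scaffold Med14, joins head and tail. Of its 10 genes 4 fell, 0 rose and 9 lay below 0, with a median of -0.15. This is 40.0% called, near the 40.6% of all genes, of which 18.5% were lower. Med31 read 12.35, 12.32 and 12.45 in young cells and 12.05, 11.97 and 12 in old cells, and fell by 0.36 ± 0.057 (adjusted p = 0.00634). Med9 read 10.78, 10.59 and 10.93 against 10.39, 10.40 and 10.36. It fell by 0.38 ± 0.094 (adjusted p = 0.0269), with old arrays almost alike and young ones spread out. Med7, which forms the hinge of the module with Med21, gave 12.97, 12.86 and 12.94 in young cells and 12.71, 12.72 and 12.74 in old cells. It fell by 0.20 ± 0.049 (adjusted p = 0.0252), against -0.06 for Med21, which did not pass.

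Med1, the subunit that nuclear receptors bind, read 13.60, 13.70 and 13.60 in young cells and 13.47, 13.40 and 13.40 in old cells. It fell by 0.21 ± 0.053 (adjusted p = 0.03), and its other 3 kept probe sets lay at -0.32 (adjusted p = 0.00636), -0.51 (adjusted p = 0.00577) and -0.56 (adjusted p = 0.121). Every kept probe set of Med1 thus pointed down. Med14, on which the modules are hung, had a difference of -0.06 (adjusted p = 0.607). Med26, the docking site for elongation factors, had one of -0.17 (adjusted p = 0.0729) and Med19 of -0.13 (adjusted p = 0.0667), both without overlap between the ages. Such a lack of overlap was found for 60.0% of the genes of the middle module and for 60.0% of all genes.

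Tail subunits receive the contacts of many activators. Of the 7 measured 1 fell and 0 rose, or 14.3% called against 40.6% of all genes, and the median was -0.11. Med23, through which growth factor signals reach Mediator by way of the factor Elk1, read 9.74, 9.59 and 9.63 in young cells and 9.44, 9.12 and 9.38 in old cells. It fell by 0.34 ± 0.10 (adjusted p = 0.0456). Med27 (-0.43, adjusted p = 0.1) and Med24 (-0.41, adjusted p = 0.136) had larger differences but overlapped between the ages. Med15, a contact of lipid-regulating factors, had a difference of -0.11 (adjusted p = 0.151), and Med25, Med16 and Med29 also did not pass.

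The kinase module can block the meeting of Mediator and polymerase. Of its 6 genes 1 rose and 1 fell, or 33.3% called against 40.6% of all genes. Its enzyme, Cdk8, read 13.12, 13.14 and 13.18 in young cells and 13.08, 13.02 and 13.14 in old cells (difference -0.07 ± 0.053, adjusted p = 0.37). The cyclin that activates it, Ccnc, read 11.62, 11.65 and 11.52 against 11.67, 11.72 and 11.60 (0.07 ± 0.060, adjusted p = 0.415). Calls were found among its large structural subunits. Med12l read 10.69, 11.09 and 10.76 in young cells and 11.59, 11.52 and 11.57 in old cells. It rose by 0.71 ± 0.11 (adjusted p = 0.00684), or by 63.9%, and its second kept probe set had a like difference of 0.71 that did not pass (adjusted p = 0.115). Med12, the gene that Med12l resembles, read 9.87, 10.12 and 10.24 against 9.88, 9.40 and 9.90. This difference of -0.35 ± 0.17 did not pass (adjusted p = 0.17). Med13l read 13.13, 13.35 and 13.21 in young cells and 13.01, 12.90 and 12.89 in old cells, and fell by 0.30 ± 0.075 (adjusted p = 0.0308). Its relative Med13 had a difference of -0.28 ± 0.12 (adjusted p = 0.122).

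Related genes were also set against each other within each array, for 4 pairs chosen after the values were seen. An exact permutation test of the ratio gave p = 0.9 for Med13l to Med13 and p = 0.1 for each other pair. Here 0.1 is the smallest possible value, and adjusted over the 4 pairs it was 0.133. Because the pairs were picked by their values, these p-values cannot judge them. The log2 ratio of Med12l to Med12 averaged 0.77 ± 0.226 on young and 1.83 ± 0.252 on old arrays (SD, n = 3), and that of Taf4b to Taf4 went from -0.38 ± 0.098 to 0.57 ± 0.228. These are changes of 1.06 and 0.95. The ratio of Med13l to Med13 changed by -0.02.

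The widest rise of all members was in a gene outside the core machinery. Gtf2ird1, a DNA-binding relative of TFII-I whose human gene lies in the region deleted in Williams syndrome, read 9.51, 9.09 and 9.61 in young cells and 10.31, 10.14 and 10.40 in old cells. It rose by 0.88 ± 0.16 (adjusted p = 0.00948), or by 84.5%, and its other probe set rose by 0.94 (adjusted p = 0.0049). TFII-I itself, Gtf2i, read 13.55, 13.55 and 13.58 against 13.50, 13.42 and 13.45 (difference -0.10 ± 0.045, adjusted p = 0.134). The ratio of Gtf2ird1 to Gtf2i changed by 0.99. Gtf2ird2 differed by 0.11 (adjusted p = 0.739).

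The TAFs outside TFIID held 1 call among 6 measured genes, or 16.7% against 40.6% of all genes. Taf15, an RNA-binding protein of the FET family, read 11.76, 11.59 and 11.78 in young cells and 11.49, 11.50 and 11.44 in old cells. It fell by 0.24 ± 0.066 (adjusted p = 0.0399), while its other probe set had a difference of -0.56 with wide spread (adjusted p = 0.311). Taf1a, Taf1b, Taf1c and Taf1d belong to the promoter factor of RNA polymerase I, and Taf5l to the SAGA coactivator. Taf1d had a difference of -0.26 ± 0.086 (adjusted p = 0.0684), Taf1c of -0.43, Taf1a of -0.19, Taf5l of -0.12 and Taf1b of 0.02, none of them past the threshold.

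Med9 and Med9os offered a look at a divergent promoter. Their RefSeq starts lie 67 bases apart on opposite strands of chromosome 11, and they are transcribed away from each other, so the Med9 stretch printed above holds the Med9os start and ends just before that of Med9. The probe set annotated to Med9os read 7.89, 7.65 and 7.46 in young cells and 7.93, 8.28 and 8.32 in old cells. All old arrays were higher, and the ages were apart in this way, in either direction, for 60.0% of all genes. The difference of 0.51 ± 0.15 missed the threshold (adjusted p = 0.0509), whereas Med9 fell. Med9 and Med9os thus differed in sign, and this contrast itself was not tested.

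**Figure D3:**
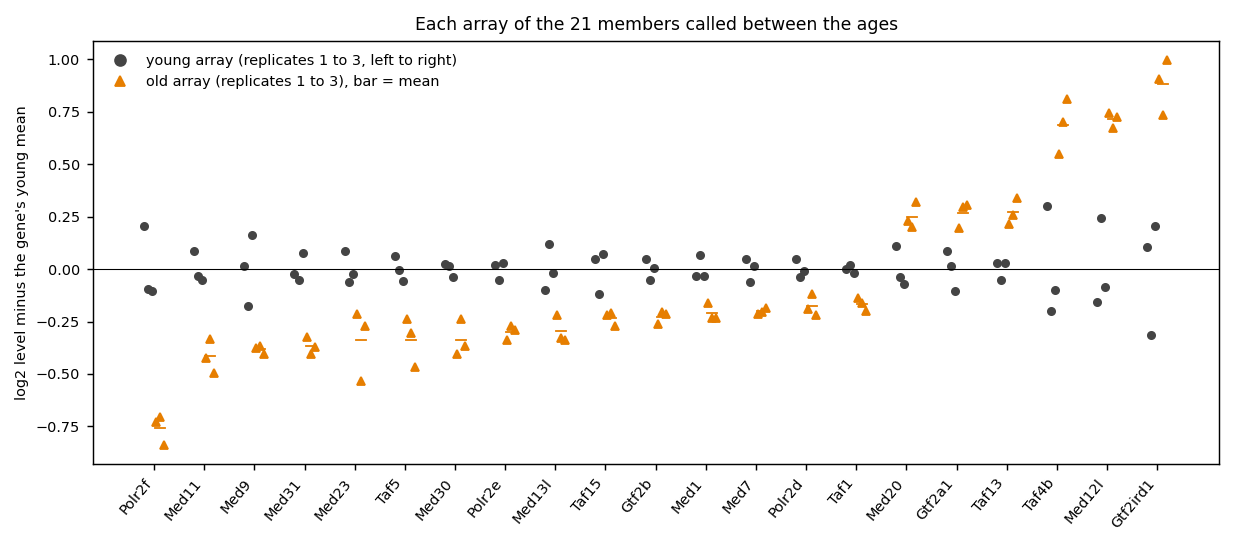
Level of each array (log2) minus the gene's mean over the 3 young arrays, for the 21 called members ordered by difference; circles are young arrays, triangles old arrays and short bars old means. For none of the 21 do the triangles and circles overlap, and the shifts run from -0.76 for Polr2f to 0.88 for Gtf2ird1. The 21 were picked by their call on these arrays, which favours such separation, and 60.0% of all genes did not overlap either.

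How well these calls hold depends on single arrays. Without old replicate 1, 2 or 3 the count of called members was 11, 7 and 8. Without young replicate 1, 2 or 3 it was 16, 20 and 10. Over all probe sets the share called was 36.6% with all arrays and 25.2 to 34.4% with 1 left out. Med11, Med30, Med31, Med12l, Polr2e, Polr2f and Gtf2ird1 passed in all 6 of these fits, with adjusted p of at most 0.043. Med1, Med23, Polr2d and Taf1 lost their call whichever array was left out (adjusted p up to 0.0987, 0.113, 0.14 and 0.104). Med20, Med13l and Gtf2a1 passed only without young replicate 1 (otherwise up to 0.125, 0.0986 and 0.109), and Med7, Med9 and Taf15 only without young replicate 2 (otherwise up to 0.0829, 0.086 and 0.121). Gtf2b passed without young replicates 1 or 2 and had an adjusted p of up to 0.0639 in the other fits. Taf4b lost its call without young replicate 3 and old replicates 2 or 3 (up to 0.0676), Taf13 without old replicates 2 or 3 (up to 0.0529) and Taf5 without young replicate 1 or old replicate 2 (up to 0.0595). None of the 21 changed direction in these fits.

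Other probe sets of the same gene gave a further view. More than 1 kept probe set was present for 28 members, and in 21 of these all kept probe sets had the same sign. The 10 members of this kind that were called had 13 other kept probe sets. All 13 had the sign of the brightest one, and 5 were called as well. The other 7 members had probe sets of both signs. Cdk7 had a called rise of 0.44 at 1 dimmer probe set (adjusted p = 0.00306), beside -0.01, 0.38 and 1.42 at others that were not called. Med28, a head subunit, had -0.09 at its brightest probe set and a called rise of 0.52 at the other (adjusted p = 0.0258). Taf1d was the most divided: of its 7 probe sets 1 fell by 0.51 (adjusted p = 0.0029), 1 rose by 0.47 (adjusted p = 0.0386) and 5 were not called. Taf1d was the only member with probe sets called in both directions. At Cdk7 the sole difference below 0 was -0.01 ± 0.067.

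**Figure D4:**
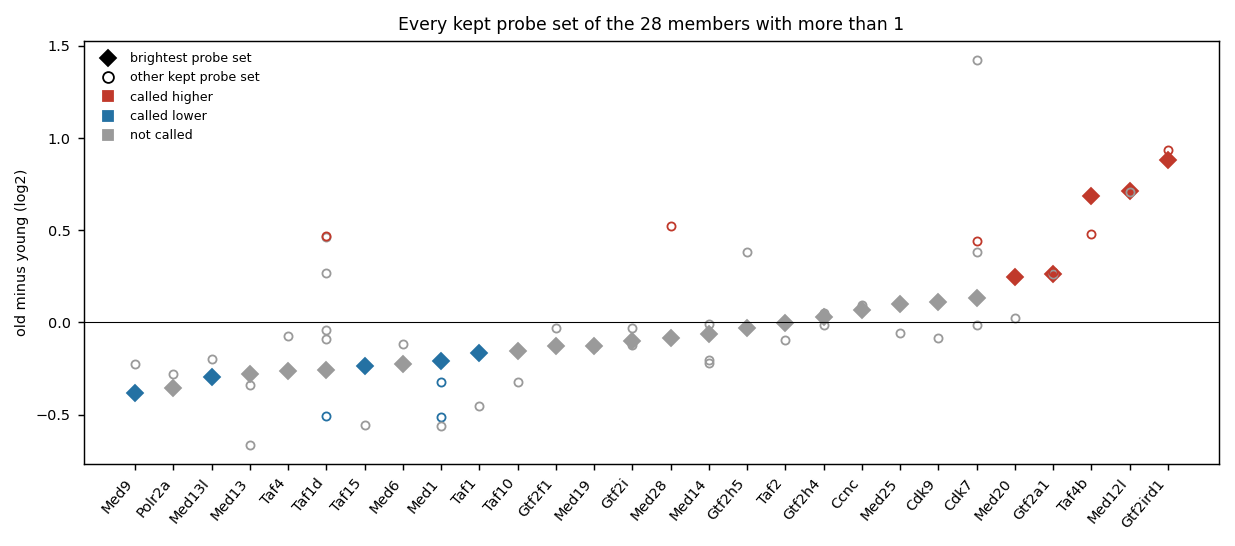
Old minus young difference (log2) at every kept probe set of the 28 members with more than 1; diamonds are the brightest probe set of a gene, open circles the others, red and blue mark calls. Probe sets of Gtf2ird1, Taf4b and Med1 lie on one side of 0, while those of Taf1d lie on both.

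Other genes of the same pathway, from lists chosen with earlier results known, were compared in the same fit. Of 72 measured genes 6 rose and 8 fell, or 19.4% against 40.6% of all genes, with a median of -0.07. Below 0 lay 52 of the 72, or 72.2%, against 68.8% of the members and 48.3% of all genes. The lean to lower values was thus not particular to the members. Among 13 partners of TFIIH, Tbp and the kinases 1 rose and 1 fell, or 15.4% called against 40.6% of all genes. Dr1, a repressor that binds Tbp, rose by 0.28 ± 0.067 (adjusted p = 0.0266). Cdk12, a kinase of the elongating polymerase, fell by 0.34 ± 0.089 (adjusted p = 0.033). Tbpl1, a relative of Tbp, had a difference of -0.40 ± 0.12 (adjusted p = 0.0544). Of the 30 pausing and elongation factors 2 rose and 3 fell, or 16.7% called against 40.6% of all genes. Ssu72, a phosphatase of the polymerase tail, rose by 0.36 ± 0.051 (adjusted p = 0.00438). Ell2 and Mllt3, parts of the super elongation complex that works with Cdk9, fell by 0.62 ± 0.087 and by 0.45 ± 0.064 (both adjusted p = 0.00455). The scaffolds of the same complex were called in opposite directions and are named after their values were seen: Aff4 fell by 0.32 (adjusted p = 0.0173) and Aff1 rose by 0.29 (adjusted p = 0.0213).

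SAGA shares TAFs with TFIID and places marks on histones. Of its 15 genes, listed with those of its relative ATAC, 2 rose and 2 fell, or 26.7% called against 40.6% of all genes. The acetyltransferase Kat2b rose by 0.56 ± 0.060 (adjusted p = 0.00191) and the adaptor Tada2b by 0.46 ± 0.070 (adjusted p = 0.00595), while the deubiquitinase Usp22 fell by 0.36 ± 0.042 (adjusted p = 0.0025). In Integrator, which cleaves RNA at paused polymerases, 1 of 14 genes rose and 2 fell, or 21.4% called against 40.6% of all genes. Ints12 fell by 0.36 ± 0.073 (adjusted p = 0.0152) and Ints9 by 0.24 ± 0.063 (adjusted p = 0.0315). Ints6 rose by 0.66 ± 0.11 at its brightest probe set (adjusted p = 0.00746), but the mean of its probe sets had a difference of -0.40 (adjusted p = 0.0189). For Ints12 that mean was -0.07 (adjusted p = 0.6).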

How the data were processed

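The deposited values are log2 levels per probe set, made by the authors with GCRMA, per the submitters' processing notes; its version and probe set definition were not given in the sources used here. RNA extraction and biotin labelling used kits, per the labels' protocols. Gene names came from the platform annotation (34945 probe sets with 1 symbol, 932 with several, 9160 unnamed here, 64 controls left out). Entrez identifiers of all 85 members matched RefSeq GRCm38.p6, and 0 symbols changed. A probe set was kept if it exceeded log2 4 on 3 or more arrays, and the kept ones were fitted with limma 3.58.1 in R 4.3.3 (lmFit, eBayes, two-sided; 4 residual and 1.47 prior degrees of freedom), p-values adjusted by Benjamini-Hochberg across the kept set, threshold 0.05. Python 3.11.15 and matplotlib 3.10.9 were used for summaries and figures. Precision is limited by having 3 arrays per age.

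The members, complexes, pathway lists and markers were chosen with earlier results of these data known; promoter motifs and gene pairs were chosen after the values were seen. Any member could be named. Values on every array were for the 6 largest rises and 10 largest falls past the threshold, Tbp, Polr2a, Ccnc, Cdk7, Cdk8, Cdk9 and the 2 members per complex with the smallest p; from pathway lists, up to 3 genes each. Some further members are shown in the same way. Alternatives were other filters, another scaling, a replicate block, array weights, other variance models, a threshold of 0.01, the mean of probe sets and leaving out each array.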

Additional observations from a re-analysis of the deposited data

How the results depend on the processing

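All 21 called members kept their direction under every alternative run. All 21 also kept their call under median centring, a second quantile normalization, array weights, eBayes with trend and both stricter filters, 20 did with robust eBayes (all but Polr2d), 17 with the mean of probe sets (not Med20, Polr2d, Taf15 and Taf1) and 12 without a filter. Without a filter 16.2% of the 80 members and 11.1% of all probe sets were called, against 26.2% and 36.6% with it. All 80 had passed the filter, while the 11.1% also covers probe sets that had not, so the unfiltered shares are not alike. The count of called members without a filter was 13 (3 higher). It was 6 at a threshold of 0.01 (2 higher, 4 lower). The share over all probe sets at that threshold is not given here, so this drop cannot be set against that of all genes. On leaving out 1 array it was 7 to 20 (2 to 9 higher, 5 to 16 lower). These are 8.75 to 25.0% of the members, against 25.2 to 34.4% of all probe sets. Deviations from the group means had r of -0.16, -0.108 and 0.157 for same-numbered arrays. With 3 arrays per age these deviations are tied to each other, so they cannot decide whether the replicate numbers pair the samples. With the replicate block 12 members were called (3 higher and 9 lower, or 15.0% against 28.2% of all probe sets), 10 of them among the 21. Young replicates 1 and 2 correlated best with an old array of another number, and young replicate 3 with old replicate 3. Pathway genes called were 14, against 22 with eBayes with trend, 8 at 0.01 and 8 to 17 on leaving out 1 array. Over all probe sets the share called was 36.6% in the main fit and 42.4% with trend. It was 25.2 to 34.4% on leaving out 1 array. Medians on leaving out 1 array ran from -0.18 to -0.13 for the Mediator middle, -0.18 to -0.11 for the kinase module, -0.036 to 0.066 for TFIIA to TFIIF and 0.019 to 0.052 for TFIIH. With the mean of probe sets the median was 0.18 for TFIIH and Cdk9 had 0.013. Signs turned for members that were not called. With the mean of probe sets Med28 had 0.22, Taf1d 0.044 and Gtf2h5 0.18, and the called pathway gene Ints6 had -0.40. With array weights Gtf2ird2 had -0.04, Taf3 0.04 and Gtf2h1 -0.029. With median centring Taf11 and Gtf2h1 had -0.01, and with quantile normalization Taf11 had -0.016, Taf1b -0.020 and Gtf2h1 -0.039. On leaving out 1 array the ranges were -0.098 to 0.008 for Med8, -0.174 to 0.019 for Med29, -0.010 to 0.091 for Polr2i, -0.057 to 0.113 for Taf1b, -0.078 to 0.267 for Gtf2ird2, -0.036 to 0.146 for Gtf2e1, -0.044 to 0.047 for Tbp, -0.034 to 0.042 for Taf2, -0.087 to 0.070 for Taf3, -0.028 to 0.035 for Taf11 and -0.032 to 0.048 for Gtf2h1. The cause of these changes was not tested.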

Other observations

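The third nuclear RNA polymerase, which makes transfer RNA and other short RNAs, was looked at after the values of the members had been seen. Of 19 genes of RNA polymerase III and its factors, all above the filter, 1 rose and 1 fell, or 10.5% against 40.6% of all genes, and the median difference was -0.03. The rise and the fall were both in TFIIIC, the factor that reads the promoters inside transfer RNA genes. Gtf3c2 went from 11.34 ± 0.10 in young to 11.66 ± 0.069 in old cells (SD, n = 3), and rose by 0.32 (limma, adjusted p = 0.0217). Gtf3c1 went from 9.77 ± 0.10 to 9.41 ± 0.14, and fell by 0.36 (limma, adjusted p = 0.0361). The large subunits Polr3a and Polr3b had differences of 0.05 and 0.04.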
